A study of Mus musculus with 8 samples.

Results

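Chemokines are small secreted proteins that draw leukocytes along a gradient, and their genes carry the symbols Ccl or Cxcl with a number, together with Cx3cl1, Xcl1, Pf4 and Ppbp. Taken by these symbols, and with 1 probe set per gene (the brightest by mean over the arrays), the chemokine ligand family comprised 34 genes of the 12393 measured, namely 18 of the CC class, 14 of the CXC class, 1 of the CX3C class and 1 of the XC class. RNA was measured on 8 arrays. The first group held 4 Braf Ca/Ca sarcomas, numbered 1, 2, 3 and 5, and the second held 2 Braf Ca/+ sarcomas, numbered 1 and 2. There were also 1 Ca/Ca muscle and 1 Ca/+ muscle, each from a hind limb that bore no tumour. All groups, the muscles included, came from animals with the p53 Fl/Fl genotype, and tumours were started by injecting an adenovirus that expresses the recombinase Cre. Neither the ages of the mice nor the cells that the virus reached are given in the sources used here. The study set the 6 sarcomas against the 2 muscles, and the genotype labels also allow Ca/Ca to be set against Ca/+ sarcomas.

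CC chemokines mainly attract monocytes, T cells and eosinophils, and CXC chemokines attract neutrophils or, for Cxcl9, Cxcl10 and Cxcl11, T and NK cells through the receptor CXCR3. Many of these genes are silent until interferon or NF-kappaB signalling switches them on, while others, such as Cxcl12 and Cxcl14, are made steadily by stromal cells. In tumours the ligands are made by macrophages, lymphocytes, fibroblasts and the tumour cells themselves, so an array of whole tissue sums them all.

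The deposited values are log2 levels, on which a difference of 1 is a doubling. The levels of 31 olfactory receptor genes, which neither tissue is known to use, served as a background, with a median log2 level of 2.92 and a 95th percentile of 3.95. Of the 34 chemokine genes, 22 lay above 3.95 on every array, 12 lay above it on some arrays and 0 lay at or below it on every array. The muscle label was borne out, as 10 of 10 muscle fibre markers had lower levels in sarcomas past the test, against 13.2% of all genes. The mean log2 level of that list was between 6.71 and 9.12 in sarcomas and between 12.84 and 13.03 in muscles. Leukocyte markers were present in both tissues, and the mean log2 level of 14 macrophage markers was 8.49 to 9.71 in sarcomas and 7.71 to 9.18 in muscles. Array medians of all genes ran from 5.79 to 5.90. In whole tissue, fewer cells of a type and less RNA per cell cannot be told apart.

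Promoter sequences are shown for 5 members on which the results below turn, the neutrophil attractant genes Cxcl1 and Cxcl2, which were high on the same arrays, the interferon-induced genes Cxcl10 and Cxcl9, which had the widest ranges among the sarcomas, and Ccl12, which rose in sarcomas. Each is 300 bases long, from 250 before to 50 after the gene's start, 5′ to 3′ on the gene's strand, from RefSeq build GRCm38.p6. Capitals mark matches to the AP-1 motif TGANTCA on either strand. NF-kappaB and interferon response motifs were also searched, and their matches are not reported here.

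Cxcl1: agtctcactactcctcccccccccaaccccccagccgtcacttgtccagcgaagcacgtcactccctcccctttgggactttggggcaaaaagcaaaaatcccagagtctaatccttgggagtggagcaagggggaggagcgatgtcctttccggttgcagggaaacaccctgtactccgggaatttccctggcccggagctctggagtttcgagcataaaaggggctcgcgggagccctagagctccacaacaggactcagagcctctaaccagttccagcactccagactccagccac
Cxcl2: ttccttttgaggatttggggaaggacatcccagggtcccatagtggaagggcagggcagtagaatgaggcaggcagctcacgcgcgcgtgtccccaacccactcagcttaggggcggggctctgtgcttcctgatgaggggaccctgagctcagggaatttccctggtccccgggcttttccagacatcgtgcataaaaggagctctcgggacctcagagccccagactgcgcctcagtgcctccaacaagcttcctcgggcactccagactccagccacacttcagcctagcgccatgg
Cxcl10: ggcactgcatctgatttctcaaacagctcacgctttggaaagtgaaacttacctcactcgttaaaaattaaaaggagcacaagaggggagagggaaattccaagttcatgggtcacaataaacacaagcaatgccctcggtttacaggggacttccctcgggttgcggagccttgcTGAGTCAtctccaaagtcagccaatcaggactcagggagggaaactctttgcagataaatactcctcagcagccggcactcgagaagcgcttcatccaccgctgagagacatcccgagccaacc
Cxcl9: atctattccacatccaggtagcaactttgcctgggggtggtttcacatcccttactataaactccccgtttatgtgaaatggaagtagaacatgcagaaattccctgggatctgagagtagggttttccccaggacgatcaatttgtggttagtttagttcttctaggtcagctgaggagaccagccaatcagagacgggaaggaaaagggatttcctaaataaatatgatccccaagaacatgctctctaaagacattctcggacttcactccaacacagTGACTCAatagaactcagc
Ccl12: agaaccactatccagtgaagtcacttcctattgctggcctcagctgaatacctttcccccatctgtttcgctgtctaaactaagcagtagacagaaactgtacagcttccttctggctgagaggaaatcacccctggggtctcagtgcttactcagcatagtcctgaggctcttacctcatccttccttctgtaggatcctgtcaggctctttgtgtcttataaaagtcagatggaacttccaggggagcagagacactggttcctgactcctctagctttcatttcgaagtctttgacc

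The stretches lie at chr5:90890995-90891294 (Cxcl1, plus strand), chr5:90903649-90903948 (Cxcl2, plus strand), chr5:92348840-92349139 (Cxcl10, minus strand), chr5:92328030-92328329 (Cxcl9, minus strand) and chr11:82101595-82101894 (Ccl12, plus strand). Cxcl10 held an AP-1 match at -74 to -68 from the gene's start and Cxcl9 held one after its start, at 32 to 38, while the letters were not found in the stretches of Cxcl1, Cxcl2 and Ccl12. Promoters were matched for 24 of the 34 members, with 27 stretches in all, since Ccl27a has 3 and Ccl25 has 2. The motif was in 6 of the 27 stretches (22.2%), 1 each for Ccl27a, Ccl28, Ccl9, Cxcl10, Cxcl9 and Ppbp, and in 7.81% of all 32851 promoters. A match describes the letters only.

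Few chemokine genes passed the test between sarcomas and muscles. By limma (Benjamini-Hochberg over the 12393 genes, adjusted p under 0.05), 1 of 34 members rose in sarcomas (2.94%), against 13.1% of all genes, and 1 of 34 fell (2.94%), against 13.2% of all genes. The gene that rose was Ccl12, a monocyte attractant of the mouse, and the gene that fell was Ccl24, an eosinophil attractant. The median sarcoma minus muscle difference of the 34 was 0.45 on the log2 scale, with 23 members positive and 11 negative, and the median of all genes was 0.03. All 6 sarcomas lay above both muscles for 3 members (Ccl12, Ccl3 and Ccl4; 8.82%), against 20.0% of all genes. All 6 lay below both muscles for 2 members (Ccl24 and Ccl27a; 5.88%), against 19.0% of all genes.

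**Figure D1:**
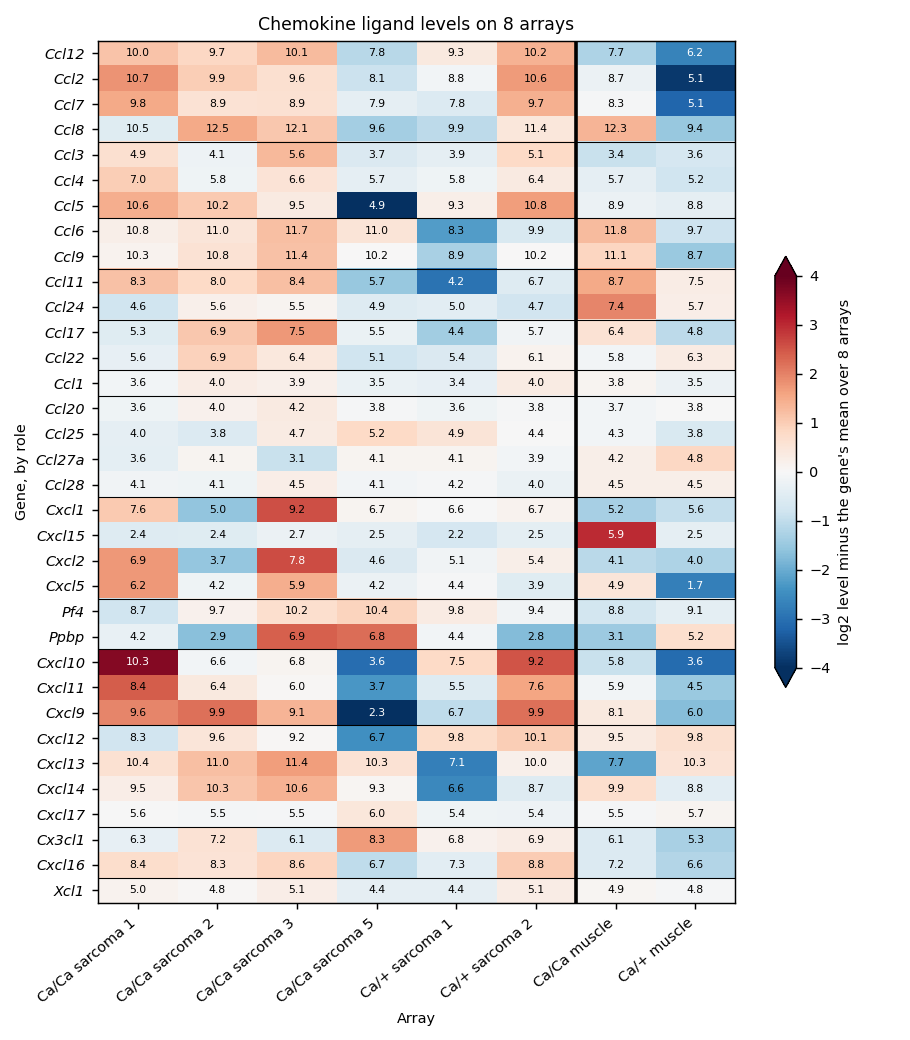
Log2 levels of the 34 chemokine ligand genes (rows, grouped by role) on the 8 arrays (columns, sarcomas left of muscles); the number in each cell is the log2 level and its colour is that level minus the gene's mean over the 8 arrays, with departures beyond 4 in the end colours. Cxcl9 and Ccl5 are at their lowest in Ca/Ca sarcoma 5, Cxcl1 and Cxcl2 are at their highest in Ca/Ca sarcoma 3, and Cxcl15 is above background in the Ca/Ca muscle alone.

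**Figure D2:**
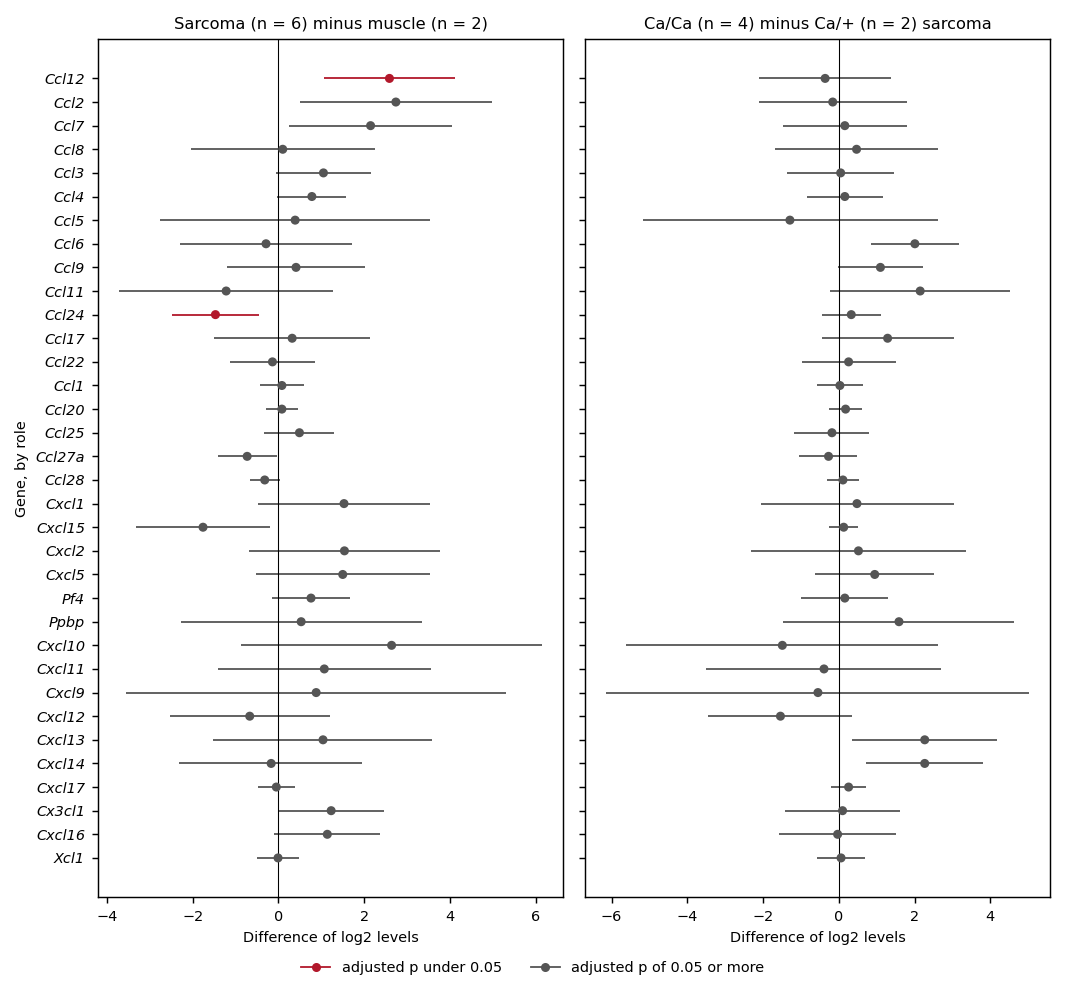
Differences of log2 levels for the 34 genes, sarcoma (n = 6) minus muscle (n = 2) on the left and Ca/Ca (n = 4) minus Ca/+ (n = 2) sarcoma on the right; points are limma estimates, bars are their 95% confidence intervals, and red marks an adjusted p under 0.05. Ccl12 (2.59) and Ccl24 (-1.47) are the red points on the left, and the right side has none.

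The monocyte attractant group was taken as Ccl2, Ccl7, Ccl8 and Ccl12. Of these, Ccl2, Ccl7 and Ccl12 act on the receptor CCR2 and bring monocytes from blood into tissue. Ccl12 had log2 levels of 10.01, 9.70, 10.14 and 7.75 in Ca/Ca sarcomas 1, 2, 3 and 5 and of 9.26 and 10.25 in Ca/+ sarcomas 1 and 2, against 7.65 in the Ca/Ca and 6.21 in the Ca/+ muscle. Every sarcoma was above both muscles, though Ca/Ca sarcoma 5 exceeded the Ca/Ca muscle by little. The mean was 9.52 ± 0.94 in sarcomas (SD, n = 6) and 6.93 ± 1.01 in muscles (SD, n = 2), a difference of 2.59 (SE 0.66; limma adjusted p = 0.022). Without the Ca/+ muscle the difference was 1.87 and no longer passed (adjusted p = 0.225), and over 17 alternative settings it ran from 1.75 to 3.54 and passed in 15.

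Ccl2, the main ligand of CCR2, had log2 levels of 10.71, 9.91, 9.55 and 8.05 in the Ca/Ca sarcomas and 8.81 and 10.61 in the Ca/+ sarcomas, against 8.68 in the Ca/Ca and 5.06 in the Ca/+ muscle. The muscles lay 3.62 apart, and Ca/Ca sarcoma 5 was below the Ca/Ca muscle. Sarcomas averaged 9.60 ± 1.04 (SD, n = 6) and muscles 6.87 ± 2.56 (SD, n = 2), and the gap of 2.74 (SE 0.98) missed the threshold (limma adjusted p = 0.073). The call turned on single arrays, since the gap was 0.93 without the Ca/+ muscle (limma adjusted p = 0.621), 4.55 without the Ca/Ca muscle (0.0153) and 3.05 without Ca/Ca sarcoma 5 (0.0416). With Ca/Ca arrays alone it was 0.88 (limma adjusted p = 0.689). Ccl7 resembled Ccl2, with 9.84, 8.90, 8.92 and 7.94 in the Ca/Ca sarcomas and 7.76 and 9.72 in the Ca/+ sarcomas, against 8.26 and 5.14 in the Ca/Ca and Ca/+ muscles (difference 2.15, limma adjusted p = 0.0941). The Ccl7 difference was 0.59 without the Ca/+ muscle (limma adjusted p = 0.724) and 3.71 without the Ca/Ca muscle (0.0171). Ccl8 ran from 9.60 to 12.48 in sarcomas and stood at 12.34 in the Ca/Ca and 9.45 in the Ca/+ muscle, so the tissues overlapped throughout (difference 0.10, limma adjusted p = 0.951). The receptor gene Ccr2 had 8.56, 8.59, 8.94 and 4.41 in the Ca/Ca sarcomas and 6.19 and 8.99 in the Ca/+ sarcomas, against 8.49 and 6.34 in the Ca/Ca and Ca/+ muscles. Of 14 macrophage markers, 2 (Cd68 and Ms4a7) rose in sarcomas, near the 13.1% of all genes that did, 0 fell and 12 did not pass, among them Cd163 with a difference of -1.14 (limma adjusted p = 0.253). The mean level of the list was lowest of the sarcomas in Ca/Ca sarcoma 5 (8.49) and lowest of all arrays in the Ca/+ muscle (7.71), and the part of these markers in the Ccl2 and Ccl7 values was not tested.

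Ccl3, Ccl4 and Ccl5 are inflammatory attractants of T cells and monocytes. None of the 3 passed between tissues. Ccl5 had log2 levels of 10.56, 10.18, 9.48 and 4.93 in the Ca/Ca sarcomas and 9.35 and 10.80 in the Ca/+ sarcomas, against 8.88 and 8.77 in the Ca/Ca and Ca/+ muscles. In 5 sarcomas it was above both muscles, and in Ca/Ca sarcoma 5 it was below both. Ccl3 was close to background throughout, with 4.91, 4.07, 5.57 and 3.70 in the Ca/Ca sarcomas and 3.93 and 5.09 in the Ca/+ sarcomas, against 3.38 and 3.61 in the Ca/Ca and Ca/+ muscles (difference 1.05, limma adjusted p = 0.153). Ccl4 lay between 5.67 and 7.01 in sarcomas, against 5.66 in the Ca/Ca and 5.23 in the Ca/+ muscle, a difference of 0.78 (limma adjusted p = 0.146).

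Ccl6 and Ccl9 are CCR1 ligands of rodents made by macrophages and other myeloid cells, and both were bright on all 8 arrays. Ccl6 had log2 levels of 10.75, 11.01, 11.73 and 11.03 in the Ca/Ca sarcomas, 8.31 and 9.92 in the Ca/+ sarcomas, 11.80 in the Ca/Ca and 9.69 in the Ca/+ muscle. Ccl9 had 10.34, 10.77, 11.37 and 10.22 in the Ca/Ca sarcomas, 8.92 and 10.23 in the Ca/+ sarcomas, 11.06 in the Ca/Ca and 8.73 in the Ca/+ muscle. For both genes the Ca/Ca muscle exceeded the Ca/+ muscle (by 2.11 for Ccl6 and 2.33 for Ccl9), and the sarcomas spread across that interval, so the tissue differences of -0.29 for Ccl6 and 0.41 for Ccl9 were small beside their errors (limma adjusted p = 0.846 and 0.714).

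The eosinophil attractants Ccl11 (eotaxin-1) and Ccl24 (eotaxin-2) act through CCR3. Ccl24 had log2 levels of 4.64, 5.64, 5.55 and 4.94 in the Ca/Ca sarcomas and 5.04 and 4.68 in the Ca/+ sarcomas, against 7.40 in the Ca/Ca and 5.70 in the Ca/+ muscle. All sarcomas were below both muscles, but the Ca/+ muscle was close to Ca/Ca sarcoma 2 and the Ca/Ca muscle carried most of the gap. The mean was 5.08 ± 0.43 in sarcomas (SD, n = 6) and 6.55 ± 1.20 in muscles (SD, n = 2), a difference of -1.47 (SE 0.44; limma adjusted p = 0.0408). Without the Ca/Ca muscle it was -0.62 (adjusted p = 0.35), and it also failed to pass without Ca/Ca sarcoma 1 (-1.38, 0.0705), Ca/Ca sarcoma 5 (-1.44, 0.0565), Ca/+ sarcoma 1 (-1.46, 0.0662) or Ca/+ sarcoma 2 (-1.39, 0.0746). Ccl11 had 8.34, 7.97, 8.39 and 5.67 in the Ca/Ca sarcomas and 4.23 and 6.66 in the Ca/+ sarcomas, against 8.70 and 7.49 in the Ca/Ca and Ca/+ muscles. Its highest sarcomas lay between the 2 muscles and its lowest far below them (difference -1.22, limma adjusted p = 0.464). Of 10 eosinophil and mast cell markers 0 passed, against 13.1% of all genes higher and 13.2% lower. Their mean log2 level was 3.44 to 5.93 in sarcomas and 4.71 to 5.57 in muscles. The eosinophil genes Epx and Ccr3 were at or below background on all arrays, and Siglecf, which marks eosinophils and some macrophages, ran from 2.07 to 4.16 in sarcomas, against 5.56 in the Ca/Ca and 2.29 in the Ca/+ muscle; its part in the Ccl24 difference was not tested.

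Ccl17 and Ccl22 call CCR4-bearing T cells. Ccl17 had log2 levels of 5.32, 6.89, 7.55 and 5.54 in the Ca/Ca sarcomas and 4.41 and 5.66 in the Ca/+ sarcomas, against 6.39 and 4.76 in the Ca/Ca and Ca/+ muscles. Ccl22 had 5.59, 6.86, 6.36 and 5.12 in the Ca/Ca sarcomas and 5.36 and 6.07 in the Ca/+ sarcomas, against 5.81 and 6.26 in the muscles. Neither separated the tissues, and both genes had their highest levels in Ca/Ca sarcomas 2 and 3. Ccl1, a CCR8 ligand, stayed between 3.37 and 4.05 on all 8 arrays, at the edge of background. Among the chemokines of lymphoid and epithelial homing, Ccl20 (CCR6), Ccl25 (CCR9), Ccl27a (CCR10) and Ccl28 (CCR10 and CCR3), the sarcoma levels ran from 3.06 to 5.20 and the muscle levels from 3.69 to 4.80, and 0 of 4 passed. Ccl25 stood at 4.05, 3.84, 4.73 and 5.20 in the Ca/Ca sarcomas and 4.91 and 4.37 in the Ca/+ sarcomas, against 4.28 and 3.78 in the muscles. Ccl27a was below both muscles in all sarcomas, with 3.56, 4.06, 3.06 and 4.07 in the Ca/Ca sarcomas and 4.07 and 3.86 in the Ca/+ sarcomas, against 4.21 and 4.80 (difference -0.73, limma adjusted p = 0.111). Its probe set is of a kind that can bind related transcripts. Xcl1, the XCR1 ligand made by activated T and NK cells, stood at 4.43 to 5.09 in sarcomas, against 4.88 in the Ca/Ca and 4.75 in the Ca/+ muscle.

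The neutrophil attractants Cxcl1, Cxcl2 and Cxcl5 act through CXCR2, and Cxcl15 (lungkine) is best known from lung. Cxcl1 had log2 levels of 7.64, 5.02, 9.17 and 6.68 in the Ca/Ca sarcomas and 6.58 and 6.71 in the Ca/+ sarcomas, against 5.25 and 5.62 in the Ca/Ca and Ca/+ muscles. Cxcl2 followed with 6.93, 3.67, 7.83 and 4.63 in the Ca/Ca sarcomas and 5.06 and 5.43 in the Ca/+ sarcomas, against 4.14 and 3.96 in the muscles. In both genes Ca/Ca sarcomas 3 and 1 were the highest and Ca/Ca sarcoma 2 was below both muscles, and neither passed (differences 1.53 and 1.54, limma adjusted p = 0.246 and 0.292). Cxcl5 had 6.15, 4.23, 5.88 and 4.18 in the Ca/Ca sarcomas and 4.38 and 3.94 in the Ca/+ sarcomas, against 4.89 in the Ca/Ca and 1.69 in the Ca/+ muscle (difference 1.50, limma adjusted p = 0.26). Its levels in the Ca/+ muscle and in Ca/+ sarcoma 2 were under background. The Cxcl5 difference changed sign without the Ca/+ muscle (-0.10, limma adjusted p = 0.964) and was 3.11 without the Ca/Ca muscle (0.0455). Cxcl15 was at or below 2.66 in every sarcoma and at 2.53 in the Ca/+ muscle, all under background, against 5.88 in the Ca/Ca muscle.

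Of 10 measured neutrophil markers, 0 passed between tissues, against 13.1% of all genes higher and 13.2% lower. Their mean log2 level was 6.39 in Ca/Ca sarcoma 3 and 4.41 to 5.76 in the other sarcomas, against 5.02 and 5.47 in the Ca/Ca and Ca/+ muscles. S100a8, which encodes an abundant calcium-binding protein of neutrophils, was 11.99 in Ca/Ca sarcoma 3 and 5.91 to 9.58 in the other sarcomas. Its partner S100a9 was 11.27 there and 4.84 to 8.05 in the others. The granule genes Ngp (6.80) and Camp (6.36) were instead highest in Ca/Ca sarcoma 2, where Cxcl1 and Cxcl2 were lowest, and Ltf (5.44) was highest in Ca/Ca sarcoma 5. The inducer Il1b, chosen after its values were seen, was highest in Ca/Ca sarcoma 3. Its log2 levels were 6.93, 5.31, 8.64 and 4.80 in the Ca/Ca sarcomas and 5.07 and 6.64 in the Ca/+ sarcomas. The Ca/Ca and Ca/+ muscles had 5.88 and 5.32. The part of these genes in the Cxcl1 and Cxcl2 levels was not tested. Elane and Mpo, granule genes of neutrophil precursors, were at or below background on all arrays.

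Pf4 and Ppbp encode the platelet chemokines, and Pf4 is also made by some macrophages. Pf4 was bright and even, with log2 levels of 8.73, 9.69, 10.20 and 10.41 in the Ca/Ca sarcomas and 9.83 and 9.37 in the Ca/+ sarcomas, against 8.79 and 9.12 in the Ca/Ca and Ca/+ muscles (difference 0.76, limma adjusted p = 0.21). Ppbp was uneven, with 4.24, 2.85, 6.92 and 6.77 in the Ca/Ca sarcomas and 4.43 and 2.79 in the Ca/+ sarcomas, against 3.07 and 5.20 in the muscles. The mean of 8 platelet markers lay between 4.17 and 4.75 in sarcomas and between 4.23 and 4.67 in muscles, with Gp5 at or below background on all arrays. Only Itgb3, an integrin gene of other cells too, passed the test and was higher in sarcomas, against 13.1% of all genes higher.

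Cxcl9, Cxcl10 and Cxcl11 are the interferon-induced ligands of CXCR3, a receptor of effector T and NK cells, and none of the 3 passed between tissues. Cxcl9 had log2 levels of 9.64, 9.88, 9.05 and 2.33 in the Ca/Ca sarcomas and 6.66 and 9.90 in the Ca/+ sarcomas, against 8.07 and 6.00 in the Ca/Ca and Ca/+ muscles. Cxcl10 had 10.35, 6.57, 6.77 and 3.63 in the Ca/Ca sarcomas and 7.46 and 9.19 in the Ca/+ sarcomas, against 5.79 and 3.59 in the muscles. Cxcl11, which the RefSeq gene table lists as a transcribed pseudogene in the reference mouse strain, had 8.45, 6.42, 6.05 and 3.68 in the Ca/Ca sarcomas and 5.50 and 7.59 in the Ca/+ sarcomas, against 5.89 and 4.54 in the muscles. In Ca/Ca sarcoma 5 all 3 were below the background level of 3.95, and each of the other 5 sarcomas had all 3 above it. Sarcoma minus muscle differences were 0.88 for Cxcl9, 2.64 for Cxcl10 and 1.07 for Cxcl11, with limma adjusted p-values of 0.784, 0.253 and 0.524.

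**Figure D3:**
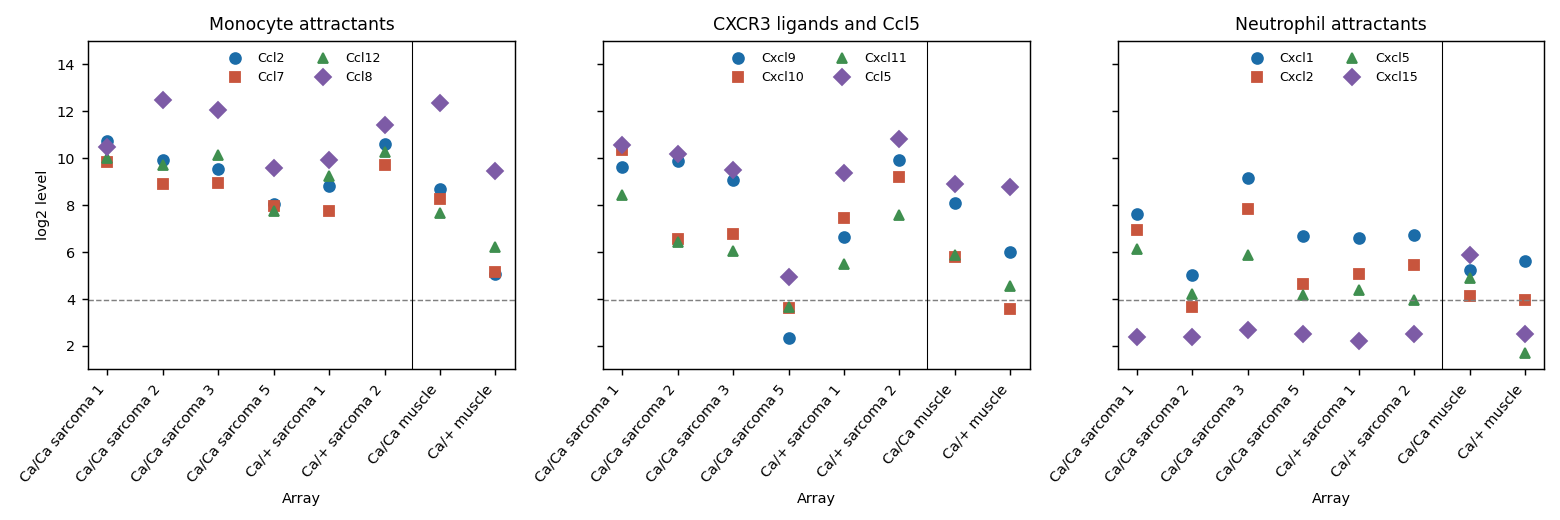
Log2 levels on each array for the monocyte attractants (left), for the CXCR3 ligands with Ccl5 (middle) and for the neutrophil attractants (right), sarcomas left of the vertical line and muscles right of it; the dashed line is the background level of 3.95. In the middle, Ca/Ca sarcoma 5 has Cxcl9, Cxcl10 and Cxcl11 under the dashed line, and on the right, Cxcl1 (9.17) and Cxcl2 (7.83) peak in Ca/Ca sarcoma 3.

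The chemokines made constitutively by stromal or epithelial cells, Cxcl12, Cxcl13, Cxcl14 and Cxcl17, gave 0 of 4 calls. Cxcl12, which holds CXCR4-bearing cells in place, had log2 levels of 8.33, 9.58, 9.15 and 6.65 in the Ca/Ca sarcomas and 9.85 and 10.09 in the Ca/+ sarcomas, against 9.46 and 9.76 in the Ca/Ca and Ca/+ muscles. Its dimmer probe set read 5.85, 6.24, 5.82 and 4.97 in the Ca/Ca sarcomas and 7.86 and 7.18 in the Ca/+ sarcomas. There every sarcoma was below both muscles (8.23 and 9.18), a difference of -2.38, against -0.67 for the probe set used. Cxcl13, the B cell attractant, had 10.39, 11.00, 11.45 and 10.35 in the Ca/Ca sarcomas and 7.06 and 10.00 in the Ca/+ sarcomas, against 7.67 in the Ca/Ca and 10.34 in the Ca/+ muscle. Here the low arrays were Ca/+ sarcoma 1 and the Ca/Ca muscle, and the other 6 lay within 10.00 to 11.45. Cxcl14 had 9.46, 10.28, 10.59 and 9.26 in the Ca/Ca sarcomas and 6.60 and 8.66 in the Ca/+ sarcomas, against 9.87 and 8.75 in the muscles. Cxcl17 stayed within 5.37 to 6.05 on all arrays. The transmembrane chemokines Cx3cl1 (fractalkine), the CX3CR1 ligand, and Cxcl16, the CXCR6 ligand, had differences of 1.23 and 1.14 (limma adjusted p = 0.13 and 0.163). Cx3cl1 had 6.28, 7.19, 6.06 and 8.32 in the Ca/Ca sarcomas and 6.80 and 6.92 in the Ca/+ sarcomas, against 6.07 and 5.31 in the muscles, and was highest in Ca/Ca sarcoma 5. Cxcl16 had 8.45, 8.30, 8.61 and 6.73 in the Ca/Ca sarcomas and 7.33 and 8.77 in the Ca/+ sarcomas, against 7.21 and 6.58 in the muscles, and its difference was 1.40 without Ca/Ca sarcoma 5 (limma adjusted p = 0.03) and 0.83 without the Ca/+ muscle (0.571). Of 9 members with more than 1 probe set, the difference had 1 sign across probe sets for 7, while Ccl28 (-0.31 and 0.03) and Cx3cl1 (-0.12 to 1.24) had both signs.

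Chemokine levels varied widely among the 6 sarcomas. Levels spanned 3 or more on the log2 scale for 13 of 34 members (38.2%), against 2.84% of all genes, and the 13 were Ccl5, Ccl6, Ccl11, Ccl17, Cxcl1, Cxcl2, Cxcl9, Cxcl10, Cxcl11, Cxcl12, Cxcl13, Cxcl14 and Ppbp. The widest spans were 7.57 for Cxcl9, 6.71 for Cxcl10 and 5.87 for Ccl5. Leaving out each sarcoma in turn gave 8 to 13 members, and the count moved by over 1.5 times without Ca/+ sarcoma 1 alone, to 8 members (23.5%), against 2.44% of all genes. No single tumour was low for all of them.

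Ca/Ca sarcoma 5 had the lowest level of the 6 sarcomas for 13 members (38.2%), against 20.5% of all genes. For 6 members (17.6%) it lay at least 1 below each of the other sarcomas, against 2.24% of all genes, and these were Ccl5, Ccl12, Cxcl9, Cxcl10, Cxcl11 and Cxcl12. In the other direction it lay at least 1 above each of the others for 1 member, Cx3cl1 (2.94%), against 1.63% of all genes. The mean log2 level of 11 measured T and NK cell markers was lowest in the same tumour. It was 5.29 there, against 5.98 to 7.30 in the other sarcomas and 6.73 and 6.27 in the Ca/Ca and Ca/+ muscles. Single markers differed, as Thy1 (11.36) and Zap70 (8.38) were at their highest of the sarcomas in that tumour. Cd4 (5.90) and Ncr1 (2.77) were not at their lowest there. The T cell receptor chain gene Cd3g was 3.34 in Ca/Ca sarcoma 5 and 3.77 in Ca/+ sarcoma 1, both under background, and 6.31 to 7.62 in the other sarcomas. The mean of the macrophage markers was lowest there as well (8.49, others 8.96 to 9.71), although Cd14 (10.13) and Cd163 (8.83) were at their highest of the sarcomas in that tumour and Cd68 (9.24) at its second highest. Irf7, an interferon-induced transcription factor gene chosen after its values were seen, had 10.84, 7.66, 8.50 and 5.26 in the Ca/Ca sarcomas and 8.64 and 10.51 in the Ca/+ sarcomas, against 7.86 and 6.06 in the Ca/Ca and Ca/+ muscles. Between tissues, 1 of the 11 T and NK cell markers rose (Thy1, a gene of fibroblasts too) and 0 fell, against 13.1% of all genes higher and 13.2% lower. The part of these markers in the low chemokine levels was not tested. Not all ligands were low in that tumour, as Ccl6 (11.03), Cxcl13 (10.35) and Pf4 (10.41) were bright there.

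Ca/+ sarcoma 1 was the lowest sarcoma for another 9 members (26.5%), against 16.5% of all genes, namely Ccl1, Ccl6, Ccl7, Ccl9, Ccl11, Ccl17, Cxcl13, Cxcl14 and Cxcl15. Ca/Ca sarcoma 3 was the highest for 13 members (38.2%), against 21.4% of all genes, among them Cxcl1, Cxcl2 and Ppbp but also Ccl6, Ccl9, Ccl11, Ccl17, Cxcl13 and Cxcl14. The median log2 level of the 34 members was 7.33, 6.72, 7.23 and 5.61 in the Ca/Ca sarcomas and 5.67 and 6.68 in the Ca/+ sarcomas, against 5.98 in the Ca/Ca and 5.27 in the Ca/+ muscle.

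**Figure D4:**
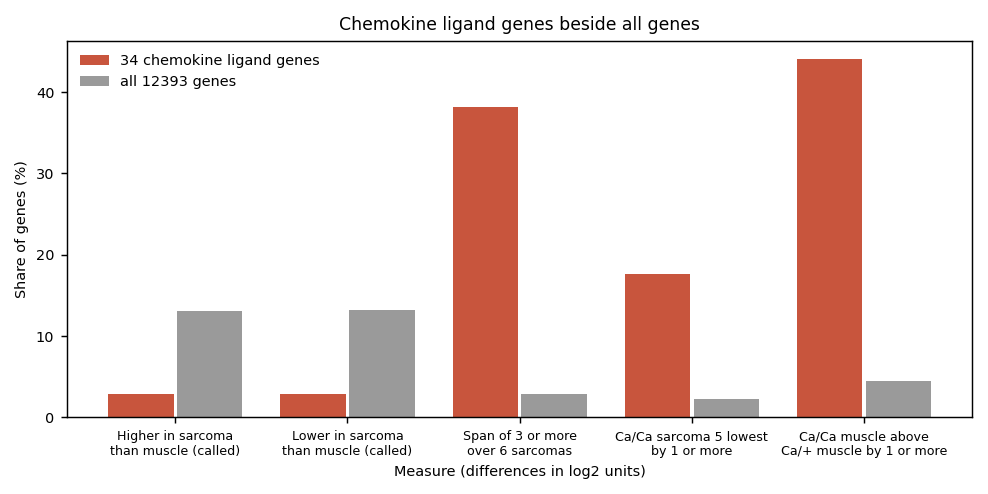
Share of genes (%) that met each of 5 descriptions, for the 34 chemokine ligand genes (left bars) and for all 12393 genes (right bars). The family has the smaller share for calls between sarcoma and muscle (2.94% against 13.1% and 13.2%) and the larger share for a span of 3 or more over the sarcomas (38.2% against 2.84%) and for the 2 descriptions of single arrays (17.6% against 2.24%, 44.1% against 4.49%).

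By genotype, 0 of 34 members passed between Ca/Ca and Ca/+ sarcomas in either direction with limma, against 0.0% of all genes higher and 0.0% lower, while at an unadjusted p under 0.05 there were 3 members and 971 genes (7.84%). The 3 members were Ccl6, Cxcl14 and Cxcl13, all higher in Ca/Ca sarcomas. Ccl6 averaged 11.13 ± 0.42 in Ca/Ca sarcomas (SD, n = 4) and 9.11 in Ca/+ sarcomas (n = 2), a difference of 2.01 (SE 0.48, 95% confidence interval 0.86 to 3.17; limma adjusted p = 0.579). Cxcl14 averaged 9.90 and 7.63, a difference of 2.27 (SE 0.64, interval 0.71 to 3.82; limma adjusted p = 0.598). Cxcl13 averaged 10.80 and 8.53, a difference of 2.27 (SE 0.79, interval 0.35 to 4.19; limma adjusted p = 0.624). In each case Ca/+ sarcoma 1 was the lowest tumour. Without it the differences were 1.21 for Ccl6, 1.24 for Cxcl14 and 0.80 for Cxcl13 (limma adjusted p = 0.946 for each). Without Ca/+ sarcoma 2 they were 2.82, 3.29 and 3.73 (limma adjusted p = 0.313, 0.417 and 0.296).

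All 4 Ca/Ca sarcomas lay above both Ca/+ sarcomas for 4 members (Ccl6, Cxcl13, Cxcl14 and Cxcl17; 11.8%), against 9.68% of all genes. They lay below both for 1 member, Cxcl12 (2.94%), against 11.3% of all genes. The monocyte attractants and the CXCR3 ligands did not order by genotype. Their intervals were wide, from -2.11 to 1.79 for Ccl2 and from -6.14 to 5.03 for Cxcl9.

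The 2 muscles differed from each other at many chemokine genes, although with 1 array each the difference has no replicate check. The Ca/Ca muscle was at least 1 above the Ca/+ muscle on the log2 scale for 15 of 34 members (44.1%), against 4.49% of all genes, and at least 1 below it for 2 members, Cxcl13 and Ppbp (5.88%), against 2.53% of all genes. The 15 included all 4 genes of the monocyte attractant group (by 3.62 for Ccl2, 3.12 for Ccl7, 2.89 for Ccl8 and 1.43 for Ccl12), all 3 CXCR3 ligands (by 2.07 for Cxcl9, 2.19 for Cxcl10 and 1.35 for Cxcl11), both eosinophil attractants, Ccl6, Ccl9, Ccl17, Cxcl14 and the neutrophil attractants Cxcl5 and Cxcl15 (by 3.21 and 3.35). In the Ca/+ muscle Cxcl5 (1.69), Cxcl15 (2.53) and Cxcl10 (3.59) were under background. The mean log2 level of the macrophage markers was 9.18 in the Ca/Ca and 7.71 in the Ca/+ muscle, that of 6 adipocyte markers was 9.09 in the Ca/Ca and 10.84 in the Ca/+ muscle, and that of 6 B cell markers was 4.78 in the Ca/Ca and 6.57 in the Ca/+ muscle. The 8 epithelial markers averaged 6.17 in the Ca/Ca and 4.31 in the Ca/+ muscle, with Krt18 at 7.70 and 3.53, Krt8 at 7.91 and 4.55 and Epcam at 7.02 and 4.57. Krt10 (5.76 and 6.59) and, by little, Krt14 (4.09 and 4.12) went the other way, and Krt5 (4.47 and 4.19) differed little. The part of these 4 lists in the muscle difference was not tested, and genotype and animal cannot be told apart with 1 muscle each.

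For the interaction, which asks whether sarcoma minus muscle differs between the genotypes, 0 of 34 members passed with limma, against 0.00807% of all genes, and 3 members and 895 genes (7.22%) had an unadjusted p under 0.05. Its spread comes from the sarcomas alone, with 4 residual degrees of freedom, so each lone muscle is assumed to vary like them. The 3 were Cxcl15 (-3.22, SE 0.30; limma adjusted p = 0.0827), Cxcl13 (4.93, SE 1.52; adjusted p = 0.55) and Ccl2 (-3.78, SE 1.54; adjusted p = 0.686), signed as the Ca/Ca difference minus the Ca/+ difference. Cxcl15 lies under background on every array but the Ca/Ca muscle, so its value is that of 1 array.

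Receptors and inducers of the ligands were read from the same fit. Of 16 measured chemokine receptor genes, 0 passed between sarcoma and muscle, against 13.1% of all genes higher and 13.2% lower, and 3 (Ccr3, Ccr8 and Xcr1) were at or below background on every array. The median difference of the 16 was -0.02. Cx3cr1, the fractalkine receptor of macrophages, had log2 levels of 8.74, 8.36, 8.17 and 6.11 in the Ca/Ca sarcomas and 8.36 and 9.16 in the Ca/+ sarcomas, against 7.12 and 5.85 in the Ca/Ca and Ca/+ muscles (difference 1.67, limma adjusted p = 0.13). Cxcr3 was highest in Ca/Ca sarcoma 5, at 8.21, where its 3 ligands were under background, and was 5.52 to 7.71 in the other sarcomas.

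Of 5 atypical receptors, which bind chemokines without the usual signalling and take them up, 2 fell in sarcomas, against 13.2% of all genes. Ackr1, found on venular endothelium, had 5.67, 6.57, 7.01 and 5.72 in the Ca/Ca sarcomas and 5.25 and 6.43 in the Ca/+ sarcomas, against 8.54 and 9.13 in the muscles (difference -2.72, SE 0.45; limma adjusted p = 0.00342). Ackr3, a scavenger of Cxcl12, had 6.99, 7.26, 7.88 and 7.86 in the Ca/Ca sarcomas and 6.35 and 6.38 in the Ca/+ sarcomas, against 8.32 and 8.99 in the muscles (difference -1.53, SE 0.46; limma adjusted p = 0.04). No sarcoma reached either muscle for these 2 genes. The Ackr3 call was lost on leaving out any of Ca/Ca sarcomas 1 or 2, Ca/+ sarcomas 1 or 2, or either muscle, with differences of -1.87 to -1.20 and adjusted p of 0.054 to 0.293. Endothelial markers fell beside them, 7 of 10, against 13.2% of all genes. Their mean log2 level was 6.11 to 7.04 in sarcomas and 8.07 to 8.27 in muscles, and their part was not tested.

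Among 21 measured inducers and transcription factors of chemokine genes, 1 rose and 0 fell, against 13.1% of all genes higher and 13.2% lower. The gene was Relb, an NF-kappaB subunit, at 6.66 to 7.05 in sarcomas and at 6.26 in each muscle (difference 0.55, SE 0.14; limma adjusted p = 0.0238). Its call was lost without the Ca/Ca muscle (0.54, limma adjusted p = 0.108), without the Ca/+ muscle (0.55, 0.144), with housekeeping centring (0.34, 0.111), with Ca/Ca arrays alone (0.52, 0.21) and with Ca/+ arrays alone (0.60, 0.242). Ifng, the gene of the interferon that induces Cxcl9, was at or below background on every array, at 2.49 to 3.26 in sarcomas and 2.55 to 2.73 in muscles.

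Genome position was read from the RefSeq gene table. Of the 34 members, 12 lie on chromosome 11 and 11 on chromosome 5. On chromosome 11, Ccl2, Ccl7, Ccl11, Ccl12, Ccl8 and Ccl1 follow each other with no other protein-coding gene between them, and so do Ccl5, Ccl9, Ccl6, Ccl3 and Ccl4. Neighbours did not share 1 order of arrays. Within the first run, Ccl12 passed between tissues, Ccl8 overlapped throughout and Ccl1 stayed near background. Within the second, Ca/Ca sarcoma 5 was lowest for Ccl5, Ccl3 and Ccl4, and Ca/+ sarcoma 1 was lowest for Ccl6 and Ccl9.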

How the data were processed

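Total RNA of 6 sarcomas and 2 muscles was hybridised to Affymetrix arrays after biotin labelling of cRNA, per the labels' protocols. The authors deposited log2 values per probe set, made with RMA per the submitters' processing notes, and joint processing of the 8 arrays, scan dates and the RMA version are not given in the sources used here. As RMA gives all arrays 1 distribution, a change in total RNA is not measured. Nothing was rescaled here. Of 22690 probe sets, 64 were controls, 20380 had 1 gene symbol in the platform annotation, 691 had several and 1555 were not listed. Entrez numbers of 20351 named probe sets matched the RefSeq table of GRCm38.p6, and 0 symbols changed. The 4 probe sets that hold a chemokine symbol among several are not reported here. Per gene the probe set with the highest mean over the 8 arrays was kept, which gave 12393 genes and 34 members, with 44 probe sets. There were 0 columns of other samples. No pair of arrays shared more than 32 equal values.

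Groups came from the sample titles. Nothing in the labels says that each array is a separate animal. The p-values then measure only how far these samples spread, which may be technical, and the number of arrays limits the precision. Tests used limma 3.58.1 in R 4.3.3 (lmFit and eBayes, two-sided, Benjamini-Hochberg over 12393 genes, threshold 0.05), tested on simulated data: over 12393 genes, changes of 1, 2, 3 and 4 on the log2 scale were called in 48.8%, 86.4%, 94.8% and 96.4% of 250 genes each for sarcoma against muscle and in 32.8%, 79.6%, 90.8% and 94.0% for Ca/Ca against Ca/+ sarcoma. The changed genes were drawn at random from all genes, each with its own spread among the sarcomas. Chemokine genes spread more widely, as 38.2% of members spanned 3 or more over the sarcomas, against 2.84% of all genes. These rates therefore do not apply to the 34 members, and a missing call does not exclude a change of such size. Tables were made with Python 3.11.15 and pandas 2.3.3, and figures with matplotlib 3.10.9.

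The members and the gene lists were chosen with earlier results of these data known. By the rule for named genes, each member is accounted for by role, with changes and adjusted p for members that passed (or the 3 of smallest p) and values per array for members that passed, for the highest and lowest of a role and for those spanning 3 or more over the sarcomas. Receptors, inducers and markers that passed were named too. Alternatives were the mean of all probe sets of a gene, cyclic loess, centring on housekeeping genes, leaving out the dimmest 25% or 50% of genes, array weights, genotype as a covariate, 1 genotype alone, a replicate block and leaving out each array.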

Additional observations from a re-analysis of the deposited data

Results flagged for a closer look

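Among 68 sets of values (34 genes in the 4 Ca/Ca sarcomas and in the 6 sarcomas), 8 held 1 array far from the others by Dixon's criterion. Chance alone gives about 1 in 20 for separate, normally spread sets. These sets overlap, since the 4 Ca/Ca sarcomas are among the 6. The share over all genes was not computed, so the count is not a trait of the family. Within the 4 Ca/Ca sarcomas, Ca/Ca sarcoma 5 was far below the other 3 for Cxcl9 (log2 level 2.33, others 9.05 to 9.88), Ccl11 (5.67, others 7.97 to 8.39) and Cxcl16 (6.73, others 8.30 to 8.61) and above them for Cxcl17 (6.05, others 5.52 to 5.56). Ccl28 was apart in Ca/Ca sarcoma 3 (4.51, others 4.08 to 4.12), near background. Over all 6 sarcomas, Ccl5 was far below the others in Ca/Ca sarcoma 5 (4.93, others 9.35 to 10.80), Cxcl17 was above them in the same tumour (6.05, others 5.37 to 5.56), and Cxcl13 was far below them in Ca/+ sarcoma 1 (7.06, others 10.00 to 11.45). The causes were not tested.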

How the results depend on the processing

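For sarcoma against muscle, the number of members that rose (1) was 2 with array weights, 3 with Ca/+ arrays alone and 0 to 4 when 1 array was left out, at 0 without the Ca/+ muscle, 3 without Ca/Ca sarcoma 5 and 4 without the Ca/Ca muscle. The number that fell (1) was 0 with cyclic loess, without the dimmest 50% of genes and with Ca/+ arrays alone, 2 with housekeeping centring and 0 to 2 when 1 array was left out. Ccl24 was among the dimmest 50%. The interaction had 1 member lower with array weights, Cxcl15 (-3.27, limma adjusted p = 0.037). Receptors and inducers that rose (1) numbered 0 with housekeeping centring and with Ca/Ca arrays alone, 4 with array weights and 0 to 2 when 1 array was left out; those that fell (2) numbered 6 with housekeeping centring, 0 with Ca/Ca arrays alone and 1 to 3 when 1 array was left out. The causes were not tested. Housekeeping centring moved the median difference of all genes from 0.03 to -0.18 and their calls to 1023 higher and 2407 lower, against 1626 and 1630. The calls of all genes rose too with array weights, to 1916 and 1811, and without Ca/Ca sarcoma 5, to 1772 and 1679. Calls were 1157 and 1830 with cyclic loess, 1422 and 884 without the dimmest 50% of genes, 372 and 823 without the Ca/+ muscle, 1040 and 1288 without the Ca/Ca muscle, 592 and 695 with Ca/+ arrays alone and 91 and 510 with Ca/Ca arrays alone. With Ca/Ca arrays alone Cxcl13 rose (3.13, limma adjusted p = 0.0329) and Cxcl15 fell (-3.39, 0.0029), and with Ca/+ arrays alone Ccl12 (3.54, 0.0429), Cx3cl1 (1.55, 0.0418) and Cxcl5 (2.47, 0.0344) rose. Of the Ca/+ arrays, the muscle (1.69) and Ca/+ sarcoma 2 (3.94) had Cxcl5 under background. Members spanning 3 or more over the sarcomas (13) numbered 12 with the mean of probe sets and 8 to 13 when 1 sarcoma was left out, alternatives chosen after seeing the data. Between tissues, the Cxcl13 difference (1.04) turned to -1.80 with Ca/+ arrays alone and ran from -0.29 without the Ca/Ca muscle to 2.37 without the Ca/+ muscle when 1 array was left out, and that of Cxcl5 (1.50) ran from -0.10 without the Ca/+ muscle to 3.11 without the Ca/Ca muscle. None of the other differences recomputed for single genes (between tissues Ccl12, Ccl24, Ccl2, Ccl7, Ccl28, Cx3cl1, Cxcl15, Cxcl16, Ackr1, Ackr3 and Relb, between genotypes Ccl6, Cxcl14 and Cxcl13, and for the interaction Cxcl15, Cxcl13 and Ccl2) changed sign under the alternatives run. The tumour number as a replicate block left 0 members and 0 genes called between genotypes by limma. With it 857 genes had an unadjusted p under 0.05, against 971 without it. Same-numbered tumours gave r of -0.19 and 0.29 for their deviations. With 2 Ca/+ sarcomas these deviations mirror each other, so the check cannot decide whether the numbers pair tumours. The main tests paired none. Members near the background level of 3.95 have little signal to show a change.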
